A study of Rattus norvegicus with 2 samples.

Results

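The NRF2 antioxidant and glutathione genes considered here were 10 rat genes, Nqo1, Gclc, Gclm, Txnrd1, Txn1, Srxn1, Gpx1, Gsr, Sod1 and Sod2. They were taken by gene symbol from the array annotation, and all 10 were measured, out of 9956 measured genes in all. They were carried by 14 probe sets, groups of short DNA probes against one transcript, of which 13 gave a usable signal. RNA came from adductor muscle, on the inner thigh, of male Lewis rats (an inbred strain) with a body weight of 275 g. The stimulated sample was left-limb muscle resected 24 hours after 100 pricks with a steel needle of 0.14 mm diameter within a 10 mm by 10 mm square. The control sample was muscle of the right limb, which received no treatment. Age and number of animals are not given in the labels, and neither is whether both samples came from the same rat.

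NRF2, encoded by Nfe2l2, is the transcription factor that sets the basal and induced level of many antioxidant enzymes. In unstressed cells the adaptor KEAP1 holds it for ubiquitination by a CUL3 ligase, and oxidants or electrophiles that modify KEAP1 let it accumulate. It then pairs with small MAF proteins on antioxidant response elements, short DNA motifs near its target genes. In skeletal muscle, oxidants come from mitochondria and from contraction, and after injury also from the NADPH oxidase of phagocytes. NQO1, the subunits of the glutathione-synthesising enzyme, thioredoxin reductase and sulfiredoxin are among the best known NRF2 targets, whereas the superoxide dismutases are also regulated by other factors such as NF-kappaB.

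With 1 array per group there were no replicates and no test could be made. "Higher" and "lower" therefore describe these samples alone. Values are MAS5 signals, a linear intensity per probe set made by the authors, and ratios are stimulated over control. Signals under a floor of 19.8, the median of all probe sets, were raised to it. As the only error at hand, different probe sets of the same gene gave an SD of the log2 ratio of a single probe set of 0.31 over 2174 genes, and, in 3 equal classes of brightness, 0.36, 0.32 and 0.25 from dim to bright. How much limbs or animals vary is not part of this SD. All 18 hybridisation spike-ins were lower on the stimulated array (median log2 ratio -0.38) while the median gene lay at 0.019, so directions hold relative to the median gene. Scaling to the spike-ins would move that gene to 0.39. The beta-actin control, which reads RNA integrity as its 3'-to-5' signal ratio, gave 2.43 for the stimulated sample and 2.26 for the control sample. Defining skeletal muscle genes were bright in both samples, for example skeletal actin Acta1 at 12095 in the stimulated sample and 16712 in the control sample, and creatine kinase Ckm at 12064 and 16392 in the same order.

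Of the 10 antioxidant genes, 8 had a log2 ratio above 0 on the probe set that stands for the gene, against 52.3% of all measured genes. Among these 8, Gclc and Txnrd1 each had another probe set below 0. The median log2 ratio of the 10 was 0.35, against 0.019 over all 9956 genes. With the median over probe sets it was 0.14, against -0.0011 over all genes. Nqo1, Srxn1 and Gpx1, 3 of 10, were at least 1.5-fold higher in the stimulated limb, while 6.59% of all measured genes were. None of the 10 was at least 1.5-fold lower, against 6.94% of all genes. None reached 2-fold in either direction, against 1.43% of all genes in each. Relative to the 0.31 SD, 5 of the 10 were higher by more than 1 SD, against 19.5% of all genes, and 1, Sod2, was lower by more than 1 SD, against 18% of all genes. For Gclc and Srxn1 this rests on the brightest probe set, and another probe set of each read otherwise. The remaining 4, Gclm, Txnrd1, Gsr and Sod1, differed by less than 1 SD. The 1.5-fold line (log2 0.58) fell between Gpx1 at 0.60, just past it, and Gclc at 0.56, just short of it.

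**Figure D1:**
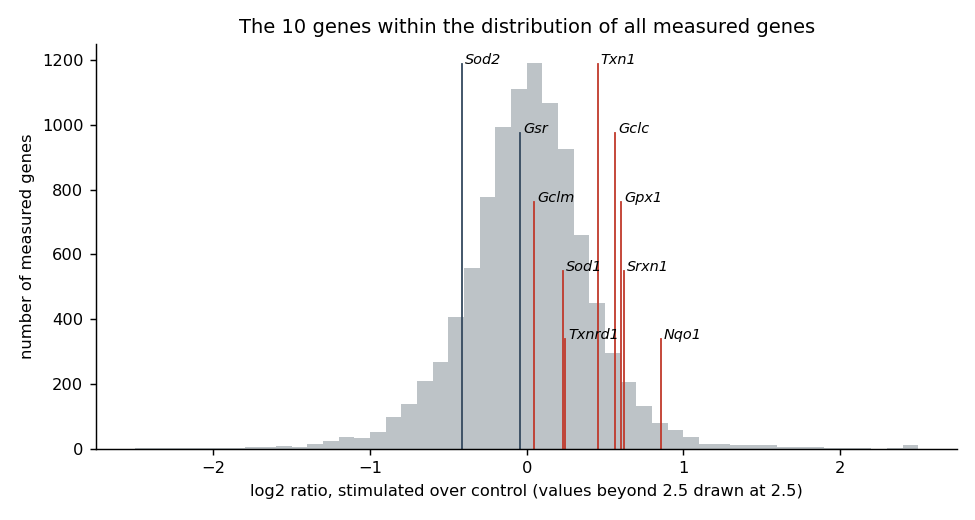
Histogram of log2 ratios (horizontal axis, stimulated over control) of all 9956 measured genes (vertical axis, number of genes), with a vertical line for each of the 10 antioxidant genes, red above 0 and dark blue below; line heights only separate the names. The 10 lines run from -0.42 (Sod2) to 0.86 (Nqo1), with 8 of them right of 0.

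Promoter windows are shown for the 3 genes past 1.5-fold (Nqo1, Srxn1 and Gpx1), for Gclm, a classical target with nearly equal signals, and for Sod2, the one gene lower by more than 1 SD. They are RefSeq sequences of build GRCr8, from 250 bases before to 50 bases after the annotated gene start, written 5′ to 3′ along the gene's strand. Capitals mark every match, on either strand, to TGANNNNGC, a loose form of the antioxidant response element core.
Nqo1: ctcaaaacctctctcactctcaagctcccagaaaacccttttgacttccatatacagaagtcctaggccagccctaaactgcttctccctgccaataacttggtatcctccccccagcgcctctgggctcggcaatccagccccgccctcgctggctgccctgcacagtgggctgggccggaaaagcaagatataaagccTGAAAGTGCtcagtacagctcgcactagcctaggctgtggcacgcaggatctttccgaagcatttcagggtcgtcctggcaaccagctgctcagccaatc
Srxn1: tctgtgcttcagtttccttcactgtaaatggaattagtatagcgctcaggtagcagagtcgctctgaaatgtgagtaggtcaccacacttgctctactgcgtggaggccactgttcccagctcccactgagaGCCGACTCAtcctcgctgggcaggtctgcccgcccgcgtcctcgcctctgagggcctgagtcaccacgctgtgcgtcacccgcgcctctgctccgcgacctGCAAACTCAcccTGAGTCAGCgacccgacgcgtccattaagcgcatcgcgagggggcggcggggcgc
Gpx1: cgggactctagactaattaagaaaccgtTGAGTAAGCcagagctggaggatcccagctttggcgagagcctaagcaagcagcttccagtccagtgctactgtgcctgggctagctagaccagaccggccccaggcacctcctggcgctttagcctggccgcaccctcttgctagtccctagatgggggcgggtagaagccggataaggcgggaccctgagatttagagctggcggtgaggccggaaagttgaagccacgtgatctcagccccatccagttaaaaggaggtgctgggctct
Gclm: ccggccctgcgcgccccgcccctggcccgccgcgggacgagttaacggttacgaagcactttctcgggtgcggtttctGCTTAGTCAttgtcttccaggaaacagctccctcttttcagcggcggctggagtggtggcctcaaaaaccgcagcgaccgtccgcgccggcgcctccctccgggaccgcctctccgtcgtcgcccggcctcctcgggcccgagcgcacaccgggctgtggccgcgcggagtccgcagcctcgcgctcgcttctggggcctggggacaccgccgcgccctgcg
Sod2: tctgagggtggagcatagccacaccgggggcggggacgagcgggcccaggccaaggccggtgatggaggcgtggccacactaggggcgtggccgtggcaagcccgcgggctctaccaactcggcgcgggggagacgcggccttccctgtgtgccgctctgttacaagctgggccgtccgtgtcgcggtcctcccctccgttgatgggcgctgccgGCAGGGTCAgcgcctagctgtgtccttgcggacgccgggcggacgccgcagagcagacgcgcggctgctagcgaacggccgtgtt

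The windows lie at chr19:52220218-52220517, minus strand (Nqo1), chr3:161064562-161064861, plus strand (Srxn1), chr8:117905212-117905511, plus strand (Gpx1), chr2:213031885-213032184, plus strand (Gclm) and chr1:50050119-50050418, minus strand (Sod2). Windows were found for 9 of the 10 genes, Gsr being without one, and Txnrd1 had 2. The loose form TGANNNNGC was present for 6 of the 9 genes, against 40.5% of all 33469 promoter windows in the table. A gene counted if any of its windows held a match, whereas the share is over single windows. Of the 2 Txnrd1 windows, 1 held a match. The stricter core TGACNNNGC, which is contained in the loose form, was present for 3 of the 9, against 12.1% of all windows. These 3 were Gclm (TGACTAAGC, starting 172 bases before the gene start), Txnrd1 (TGACAAAGC, 78 bases before) and Sod2 (TGACCCTGC, 35 bases before), all on the strand opposite to the gene. None of the 3 was among the genes past 1.5-fold. Srxn1 held 3 loose matches, the most of any window here, and one of them, TGAGTCAGC across the gene start, also matched TGANTCAGC, a form present in 1.11% of all windows that was searched after the windows had been seen. Nqo1 held TGAAAGTGC, 50 bases before the start, and Gpx1 held TGAGTAAGC, 222 bases before. A match describes letters only, and elements outside these windows were not searched.

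Nqo1 (Entrez gene 24314), the quinone reductase that uses NADH or NADPH to reduce quinones without releasing radicals, had the largest ratio of the 10 genes. Its signal was 198 in the stimulated sample and 109 in the control sample, 1.81-fold higher (log2 ratio 0.86). The difference was 2.70 times the SD of a probe set of its brightness. The ratio ranked 232nd from the top among 9956 genes. Nqo1 had 1 probe set, so there was no second reading of it.

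Glutathione synthesis showed no common direction. Gclc (Entrez gene 25283) encodes the catalytic subunit of glutamate-cysteine ligase, the rate-limiting enzyme of glutathione synthesis, and Gclm (29739) its modifier subunit. The brighter Gclc probe set read 63.7 in the stimulated sample and 43.1 in the control sample, 1.48-fold higher. The other Gclc probe set read 18.2, below the floor, in the stimulated sample and 32.4 in the control sample, at least 1.64-fold lower. The probe sets of Gclc thus pointed in opposite directions, and no direction for the gene can be read from them. Gclm read 173 in the stimulated sample and 167 in the control sample, a log2 ratio of 0.048, well inside the probe set SD. Gss, glutathione synthetase, which adds glycine in the last step, read 40.7 in the stimulated sample and 22.2 in the control sample, 1.83-fold higher, with the control signal close to the floor.

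Glutathione is used by peroxidases and restored by glutathione reductase. Gpx1 (Entrez gene 24404), the selenium-containing cytosolic peroxidase that reduces hydrogen peroxide with glutathione, read 3775 in the stimulated sample and 2484 in the control sample, 1.52-fold higher. Its log2 ratio of 0.60 was 2.46 times the SD of its brightness class. Among the brightest 3319 genes, to which Gpx1 belongs, 4.79% were at least 1.5-fold higher, and among the 3318 of middle brightness, which hold Nqo1 and Srxn1, 6.33% were. Under quantile normalization the log2 ratio of Gpx1 was 0.55, inside 1.5-fold. Gsr (116686), the reductase that regenerates glutathione with NADPH, read 25.4 in the stimulated sample and 26.1 in the control sample. Both Gsr signals lay only just above the floor of 19.8, so a difference in this gene was hardly measurable. Other peroxidases lay near 0: the plasma peroxidase gene Gpx3 had a log2 ratio of -0.12 and the lipid peroxidase gene Gpx4 one of 0.12.

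**Figure D2:**
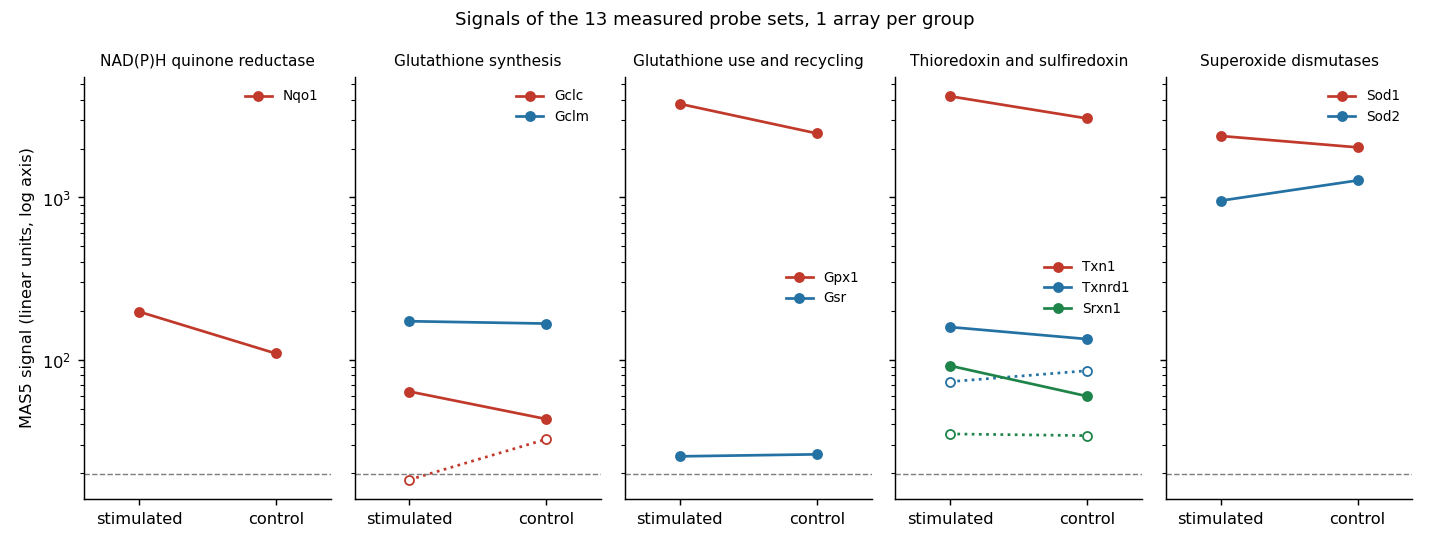
MAS5 signal (vertical log axis, linear units) of each measured probe set in the stimulated sample (left of each panel) and the control sample (right), 1 array each, in panels by role. Filled points and solid lines are the probe set that stands for the gene, open points and dotted lines its other probe sets, and the dashed line is the floor of 19.8; Nqo1, Gpx1, Txn1 and the brighter Srxn1 and Gclc probe sets slope down from stimulated to control, and Sod2 slopes up.

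The thioredoxin system passes electrons from NADPH through thioredoxin reductase to thioredoxin, which reduces protein disulfides and peroxiredoxins. Txn1 (Entrez gene 116484), cytosolic thioredoxin, read 4202 in the stimulated sample and 3069 in the control sample, 1.37-fold higher, 1.85 times the SD of its brightness class. Srxn1 (296271), sulfiredoxin, which repairs overoxidised peroxiredoxins, read 91.7 in the stimulated sample and 59.5 in the control sample on its brightest probe set, 1.54-fold higher. A second Srxn1 probe set read 34.9 in the stimulated sample and 34.0 in the control sample, almost equal. The third Srxn1 probe set, at 1.08 in the stimulated sample and 1.61 in the control sample, did not reach the floor on either array and was not used. The higher reading of Srxn1 thus came from 1 of its 2 measured probe sets. With the median over both, or without a floor, Srxn1 lay inside 1.5-fold, at log2 ratios of 0.33 and 0.51. Txnrd1 (58819), the cytosolic thioredoxin reductase and a selenoprotein, read 159 in the stimulated sample and 134 in the control sample on the brighter probe set, 1.19-fold higher. Its other probe set read 73.2 in the stimulated sample and 85.5 in the control sample, 1.17-fold lower. Both Txnrd1 differences were smaller than the probe set SD and opposite in sign. Of the 3 antioxidant genes with several probe sets, Gclc and Txnrd1 therefore had readings of both signs.

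Superoxide dismutases convert superoxide to hydrogen peroxide in different compartments, and the genes of this family went different ways. Sod1 (Entrez gene 24786), the cytosolic copper and zinc enzyme, read 2393 in the stimulated sample and 2036 in the control sample, a log2 ratio of 0.23 that is just under the SD of 0.25 of its brightness class. Sod2 (24787), the manganese enzyme of the mitochondrial matrix, read 955 in the stimulated sample and 1274 in the control sample, 1.33-fold lower, 1.69 times that SD. Sod3, the extracellular enzyme, which is not among the 10 genes, read 238 in the stimulated sample and 359 in the control sample, 1.51-fold lower. Markers of mitochondrial content were centred on 0 beside the lower Sod2, with a median log2 ratio of 0.015 over 9 measured genes and a range from -0.29 (Atp5f1b, an ATP synthase subunit) to 0.29 (Tomm20, an import receptor). While 3740 of all 9956 measured genes lay beyond the SD of 0.31, all 9 of these markers lay within it on the probe set that stands for each gene. Of 5 further probe sets of these genes, 4 lay beyond it, 3 of them lower (citrate synthase Cs at -0.56 and -0.34, and the pore gene Vdac1 at -0.38) and 1 higher (Tomm20 at 0.53). Catalase, Cat, which removes hydrogen peroxide in peroxisomes, read 471 in the stimulated sample and 439 in the control sample.

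**Figure D3:**
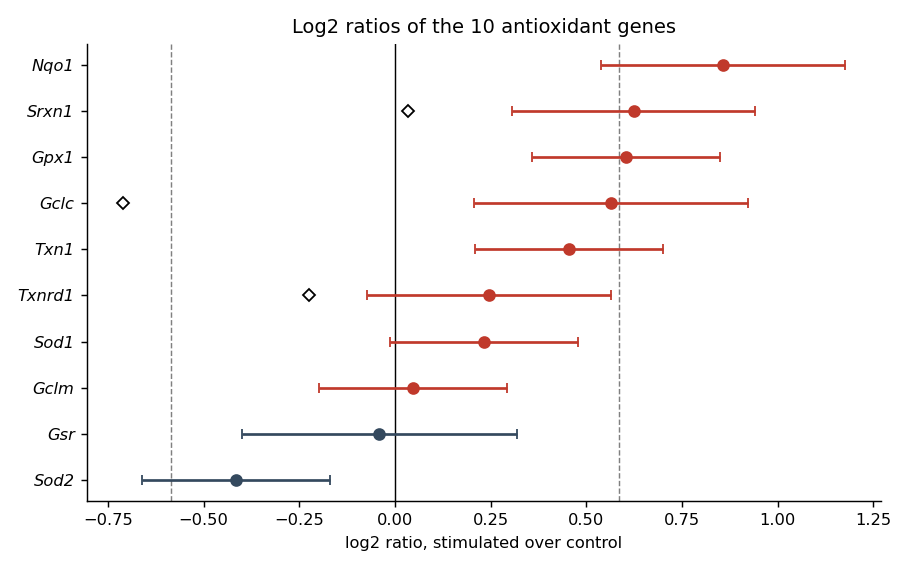
Log2 ratio (horizontal axis, stimulated over control) of each of the 10 genes, ordered by ratio. Circles are the probe set that stands for the gene (red above 0, dark blue below), bars are 1 SD of a single probe set in its brightness class, open diamonds are the gene's other measured probe sets and dashed lines mark 1.5-fold; the diamonds of Gclc (-0.71) and Txnrd1 (-0.22) lie on the other side of 0 from their circles.

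The regulators of the pathway lay within 1.5-fold on the probe set that stands for each gene, and their other probe sets often disagreed. Nfe2l2, encoding NRF2 itself, read 254 in the stimulated sample and 259 in the control sample, and Keap1 read 202 in the stimulated sample and 211 in the control sample. A second Keap1 probe set was lower, at 84.1 in the stimulated sample and 119 in the control sample. Of 11 regulators, 9 were measured, 5 above and 4 below 0, with a median log2 ratio of 0.058 and 0 past 1.5-fold. The largest ratios were those of Rbx1, the RING subunit of the CUL3 ligase, at 0.51, with a second probe set at -0.23, and of Nfe2l1, an NRF2-related factor, at -0.44, with its other probe sets at -0.13 and -0.69. Mafg, a small MAF partner of NRF2, had a log2 ratio of 0.26 on the brighter probe set, while a second one read 21.7 in the stimulated sample and 43.8 in the control sample, a log2 ratio of -1.01. Of the 8 further probe sets measured for regulators, 4 pointed away from the one that stands for the gene, and 2 were past 1.5-fold, both lower. Neither array reached the floor for Bach1, which represses many NRF2 targets, or for Maff, a small MAF protein. NRF2 activity is set mainly by protein stability, which these arrays do not measure.

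Other genes widely described as NRF2 targets went both ways. Of 18, 14 were measured, 7 above and 7 below 0, with a median log2 ratio of -0.013. Past 1.5-fold lay 2 higher and 2 lower genes, and 1 of the higher was past 2-fold. Akr1b8, an aldo-keto reductase that reduces reactive aldehydes, read 234 in the stimulated sample and 69.8 in the control sample, 3.35-fold higher. Pir, pirin, an iron-binding nuclear protein, read 116 in the stimulated sample and 64.7 in the control sample, 1.79-fold higher. Of the 14 measured genes, 10 differed by more than the probe set SD of 0.31, some higher and some lower, against 3740 of all 9956 measured genes. The log2 ratios of Akr1b8 and Pir were 1.74 and 0.84. Those of Abcc4, Ephx1 and Hmox1, described next, were -0.78, -0.76 and -0.40. Hmox1, haem oxygenase 1, a classical stress-induced target, read 106 in the stimulated sample and 140 in the control sample, 1.32-fold lower. The export pump gene Abcc4 was 1.72-fold lower, at 27.7 in the stimulated sample and 47.6 in the control sample, and Ephx1, microsomal epoxide hydrolase, was 1.69-fold lower, at 30.5 and 51.6 in the same order. The cystine transporter gene Slc7a11 and Aldh3a1 did not reach the floor on either array. The ferritin genes Fth1 and Ftl1 were not analysed here because their probe sets carry several gene symbols.

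NADPH, the electron donor shared by GSR, TXNRD1 and NQO1, comes largely from the pentose phosphate pathway. Of 11 genes of NADPH supply, 10 were measured, 8 above and 2 below 0, with a median log2 ratio of 0.35, equal to that of the 10 antioxidant genes. Past 1.5-fold lay 2 higher genes and 0 lower ones. Tkt, transketolase, read 263 in the stimulated sample and 172 in the control sample, 1.53-fold higher. Pgls, 6-phosphogluconolactonase, read 173 in the stimulated sample and 113 in the control sample, also 1.53-fold higher. The other pathway enzymes measured, chosen for naming after their values were seen, were Taldo1 (transaldolase, 1.46-fold higher) and Pgd (6-phosphogluconate dehydrogenase, 1.38-fold higher). All 4 pentose phosphate genes measured were thus higher in the stimulated sample by more than the probe set SD, against 19.5% of all measured genes. The mitochondrial NADPH producers Idh2 and Nnt, likewise chosen after their values were seen, had log2 ratios of 0.032 and -0.093.

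Glutathione enzymes outside the 10 genes had a median close to 0. Of 19, 17 were measured, 9 above and 8 below 0, with a median log2 ratio of 0.018, and Gss past 1.5-fold. Ggt7, a gamma-glutamyltransferase family gene, was at least 1.38-fold lower, with a stimulated signal of 5.58 below the floor and a control signal of 27.3, so a larger difference is possible. Further probe sets past 1.5-fold were those of Glrx at -0.60, Ggt5 at -0.76 and Glrx2 at 0.61, whose brighter probe sets lay at -0.064, -0.29 and 0.091 in the same order. Of 19 glutathione S-transferases, which attach glutathione to electrophiles, 16 were measured, 8 above and 8 below 0, with a median of -0.034, 2 past 1.5-fold higher and 1 lower. Gstz1, which also acts in tyrosine breakdown, was 2.01-fold higher, at 47.8 in the stimulated sample and 23.8 in the control sample. Gsto1, an omega-class enzyme, was 1.58-fold higher, at 872 in the stimulated sample and 553 in the control sample. Gstm2 was 1.51-fold lower, at 348 in the stimulated sample and 527 in the control sample. Rat class mu genes have near-identical copies, so probes for Gstm2 may also read its relatives.

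Other thioredoxin and peroxiredoxin genes had 17 of 19 measured, 12 above and 5 below 0, and a median log2 ratio of 0.087. Prdx5, a peroxiredoxin of mitochondria, peroxisomes and cytosol, was the only gene of the list past 1.5-fold, at 1949 in the stimulated sample and 1273 in the control sample (1.53-fold higher). Mitochondrial thioredoxin, Txn2, had a log2 ratio of 0.060, and Txnip, the inhibitor of thioredoxin, read 1407 in the stimulated sample and 1822 in the control sample, a log2 ratio of -0.37. Prdx1 was not analysed here because its probe set carries several gene symbols. Genes of selenium handling and other selenoproteins, examined because GPX1 and TXNRD1 contain selenocysteine, had 10 of 12 measured genes above 0, a median of 0.12 and 0 past 1.5-fold on the probe set that stands for each gene. The largest ratios on those probe sets were those of Sephs2, which makes the selenium donor for selenocysteine, at 0.40, and Scly, which recovers selenium from selenocysteine, at 0.36. A second probe set of Selenon, a selenoprotein of the endoplasmic reticulum, went further, at 20.1 in the stimulated sample and 62.1 in the control sample (log2 ratio -1.63), whereas its brighter probe set lay at -0.097. The 3 metallothionein genes measured lay between 0.33 and 0.37, with Mt2A at 2708 in the stimulated sample and 2146 in the control sample and Mt1 at 45.8 and 35.5 in the same order.

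**Figure D4:**
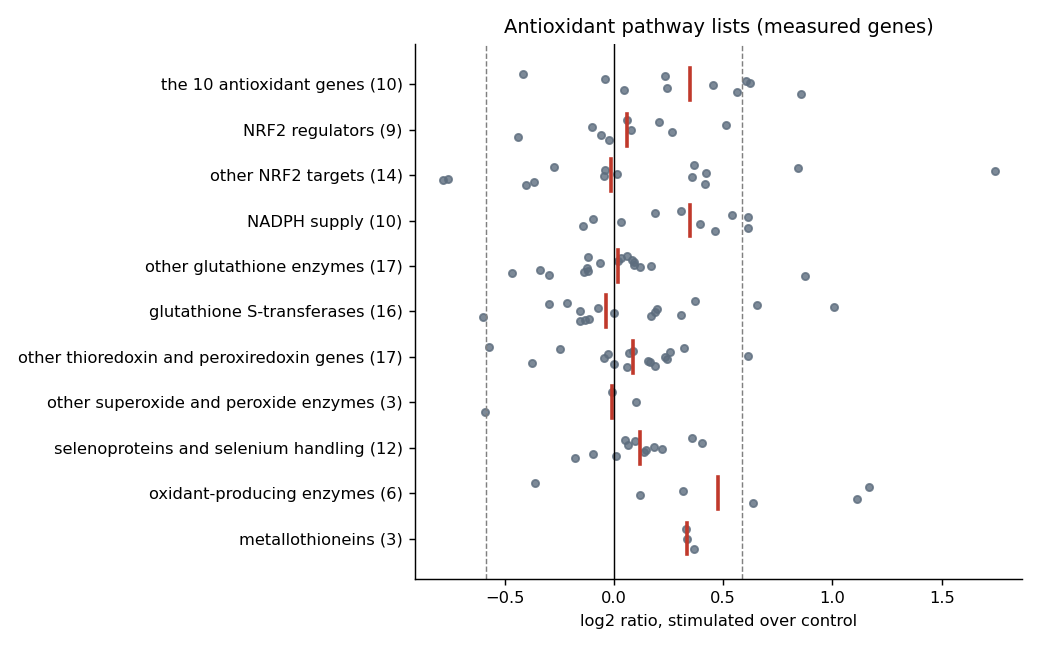
Log2 ratios (horizontal axis, stimulated over control) of the measured genes of each pathway list, 1 point per gene, with the number measured in brackets; red bars are list medians, dashed lines mark 1.5-fold, and the vertical scatter within a list has no meaning. The 10 antioxidant genes and the NADPH supply genes both had medians of 0.35, while the regulators and other target lists had medians of 0.058 and -0.013.

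Markers of other cells differed between the same samples. In bulk muscle, fewer cells of a type and less RNA per cell cannot be told apart. Of 15 macrophage markers, all 15 were above 0, against 52.3% of all measured genes, and 9 were at least 1.5-fold higher, against 6.59%. Their median log2 ratio was 0.68, and their summed signal was 16679 in the stimulated sample and 6375 in the control sample. None of the 15 was below the floor on both arrays, although Cd14 and Cd163 had log2 ratios of 0.084 and 0.090. The list was led by Spp1 (2847 in the stimulated sample, with the control signal of 12.7 below the floor) and Gpnmb (3165 in the stimulated sample and 188 in the control sample). Much of the difference in the summed signal came from Spp1 and Gpnmb. Enzymes that produce oxidants included subunits of the phagocyte NADPH oxidase. Cyba, its p22phox subunit, read 510 in the stimulated sample and 236 in the control sample, 2.16-fold higher, and its activator gene Rac2 read 96.7 and 43.1 in the same order, 2.24-fold higher. Cybb, its catalytic subunit, was 1.56-fold higher on the brighter probe set and had a log2 ratio of 0.21 on the other. Of this list 6 of 9 genes were measured, 5 above and 1 below 0, and the one below, Xdh (xanthine dehydrogenase, at -0.36), is not a subunit of that oxidase. The part of macrophage RNA in the ratios of the 10 antioxidant genes was not tested.

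Of 8 neutrophil markers, 3 were measured, 4 did not reach the floor on either array, and 1, Elane, was not analysed here. The 3 had a median log2 ratio of 0.065 and summed signals of 198 in the stimulated sample and 182 in the control sample. S100a9, a major neutrophil protein gene, read 41.7 in the stimulated sample and 45.9 in the control sample, the 4 below the floor were S100a8, Cxcr2, Mmp8 and Mmp9, and Csf3r was at least 1.47-fold higher with a stimulated signal of 29.2. Slow-fibre markers were all above 0 (8 of 8, median 1.83, led by Tnnc1 at 2.88 and Myl2 at 2.51), with summed signals of 2387 in the stimulated sample and 1206 in the control sample. The slow-fibre median rests on bounds for Myh7 and Tnnt1, whose control signals were below the floor: it was 0.89 with a 75th percentile floor, 2.34 with a 25th percentile floor and 1.48 with the median over probe sets. Of the 10 Tpm3 probe sets measured, 6 were below 0. Fast-fibre markers were all below 0 on the probe set that stands for each gene (9 of 9, median -0.42, with Pvalb at -0.51 and Myl1 at -0.49), while 3 of 5 further probe sets, of Myh1 and Tnnt3, were above 0. The fast-fibre median came to 0 under quantile normalization and to -0.038 with spike-in scaling, so its size depends on the scaling. Quantile normalization sets a probe set of equal rank on both arrays to a log2 ratio of 0. These markers are among the brightest signals, where ranks can move little, so it cannot decide their sign. Of 11 skeletal muscle markers measured, 9 were below 0, with a median of -0.39, led by Acta1 at -0.47 and Casq1 at -0.46. This median was -0.015 under quantile normalization, with the same limit for its brightest genes, and -0.0092 with spike-in scaling. With the median over probe sets it was -0.19. Some genes are in both the fast-fibre and the skeletal muscle list. Sod2, at -0.42, lay close to the medians of the fast-fibre and skeletal muscle lists with the authors' scaling. With spike-in scaling Sod2 was at -0.031, again close to both medians. Under quantile normalization Sod2 was at -0.47, but the list medians there carry the limit given above. The part of fibre type in the ratios of the 10 genes was not tested.

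Endothelial markers were below 0 in 8 of 9 (median -0.63, led by Plvap at -1.86 and Kdr at -1.04), with summed signals of 749 in the stimulated sample and 1293 in the control sample. Adipocyte markers were below 0 in 7 of 7 (median -1.54, led by Cfd at -2.09 and Adipoq at -1.76), with summed signals of 1583 in the stimulated sample and 3345 in the control sample. This median is the bound for Cidec, and it was -0.31 with a 75th percentile floor, -1.22 without a floor and -1.15 with the median over probe sets. Fibroblast and tendon markers were mixed, 6 above and 3 below 0, led by Thbs4 at 2.97 and Tnmd at 2.74, with a median of 0.29. The samples thus differed in markers of several cell types, and the part of each in the antioxidant gene ratios was not tested.

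**Figure D5:**
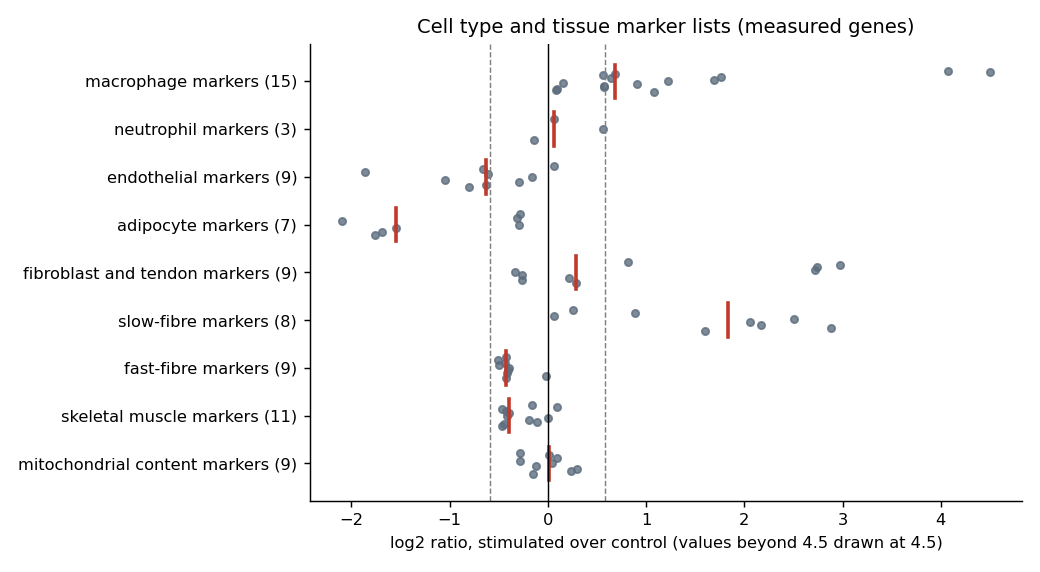
Log2 ratios (horizontal axis, stimulated over control) of measured marker genes of cell types and tissue components, 1 point per gene, with the number measured in brackets; red bars are medians, dashed lines mark 1.5-fold, and the vertical scatter within a list has no meaning. All 15 macrophage and all 8 slow-fibre markers lie right of 0, and all 7 adipocyte and all 9 fast-fibre markers left of it.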

How the data were processed

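RNA of 2 muscle samples was hybridised to 1 Affymetrix array each, after RNeasy purification and one-cycle biotin labelling, per the labels' protocols. The deposited intensity values are linear MAS5 signals, 1 per probe set, made by the authors per the submitters' processing notes (version and scaling target are not stated there). Of 31099 probe sets in the table, 57 were controls of the manufacturer and were left out. MAS5 subtracts mismatch probes, so dim signals are the least precise, and the number of arrays limits the precision of every value.

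Genes were named through the platform annotation, in which 20832 probe sets had 1 symbol and 436 had several, the latter left out; 20764 matched the RefSeq gene table by identifier. Signals were kept on the authors' scale, raised to the floor of 19.8, and compared as log2 ratios. A gene counted as measured if either array reached the floor. Among its measured probe sets the brightest by mean log2 signal stood for it (9956 genes, 8995 above the floor on both arrays). A fold against a signal below the floor is a lower bound, written "at least". No test was run. The probe set SD is that of the difference between the 2 brightest probe sets of a gene, divided by the square root of 2. The script was tested on simulated data.

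The 10 genes and the 20 gene lists (the 10 themselves, pathways and cell type markers) were chosen with earlier results of these data known, so their directions are not independent evidence. Named from each pathway list were genes past 1.5-fold (at most 6), otherwise the 2 of largest absolute ratio, plus Nfe2l2, Keap1, Bach1, Hmox1, Cat, Gpx3, Gpx4, Prdx1, Txnip and Txn2, and from each marker list up to 2. Others named (Maff, Slc7a11, Aldh3a1, Fth1, Ftl1, Xdh, S100a8, Cxcr2, Mmp8, Mmp9, Cd14, Cd163, Ckm, Mafg, Cs, Vdac1, Ggt7, Ggt5, Glrx, Glrx2, Sesn1, Sesn2, Txnl1, Selenon, Elane, Tpm3, Myh7, Tnnt1, Myh1, Tnnt3, Cidec, Taldo1, Pgd, Idh2 and Nnt) were added after their values were seen. Alternatives were quantile normalization, spike-in scaling, floors at the 25th and 75th percentile of signals, no floor with 16 added to each signal, the median over probe sets, and leaving out suffixed probe sets. Python 3.11.15, pandas 2.3.3 and numpy 2.4.6 were used.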

Additional observations from a re-analysis of the deposited data

How the results depend on the processing

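No paired analysis was possible because each group was 1 array. The median log2 ratio of the 10 antioxidant genes, 0.35, lay between 0.14 (median over probe sets) and 0.35 under the alternatives other than spike-in scaling, and it was 0.25 both without suffixed probe sets, which drops Nqo1, and for a floor at the 75th percentile, which drops Gclc and Gsr. With spike-in scaling it was 0.73, and 7 of the 10 genes were at least 1.5-fold higher, but that scaling lifts nearly all genes: 535 of them were then at least 2-fold higher and 44 lower, and 2822 at least 1.5-fold higher and 181 lower, against 142, 142, 656 and 691 with the authors' scaling. Taken relative to the median gene, an alternative chosen after seeing the data, spike-in scaling moved none of these values by more than the probe set SD or 1.5 times. Spike-in scaling applies a single factor, which subtracting the median gene takes out again. Apart from effects of the floor, this alternative had to return the main values and is no separate check. With the floor at the 25th percentile 474 genes were at least 2-fold higher and 596 lower, and 1328 at least 1.5-fold higher and 1622 lower; with the floor at the 75th percentile these were 52, 49, 271 and 199. Of the 10 genes, 2 or 3 were at least 1.5-fold higher and 0 lower under all alternatives other than spike-in scaling. These were not always the same genes: under quantile normalization Gpx1 came to 0.55, inside 1.5-fold, and Gclc reached 0.61, and Srxn1 was inside 1.5-fold at 0.51 without a floor and at 0.33 with the median over probe sets. Gclc turned to -0.073 with the median over its probe sets, and Srxn1 came to 0.26 for the 75th percentile floor, under which its control signal lies. Gsr, near the floor, changed sign under 1 alternative besides spike-in scaling, and the other 8 genes kept theirs there. A single array per group allows no statement on variation between limbs or animals.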
